A study of Mus musculus with 54 samples.

Results

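This report describes 9 genes that encode costimulatory and checkpoint molecules of macrophages, in microglia (MG) and in subdural CNS-associated macrophages (sdCAMs, from the leptomeninges and the perivascular spaces) of the mouse brain. The genes were Cd40, Cd80, Cd86, Cd274, Pdcd1lg2, Icosl, Havcr2, Vsir and Cd200r1. They were taken by symbol, and all 9 were among the 33280 gene symbols of the count tables. No measured value entered the choice of rows, but the genes were picked with earlier results of these libraries known.

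Macrophages that present antigen give T cells a second signal beside the antigen itself. CD40, a receptor of the TNF receptor family, receives the CD40 ligand of activated T cells, and CD80 and CD86 are the B7 ligands that engage CD28 as activators or CTLA4 as a brake. ICOSL is the ligand of the T cell receptor ICOS. CD274 (PD-L1) and PDCD1LG2 (PD-L2) bind PD-1 and restrain T cells. HAVCR2 (TIM-3), VSIR (VISTA) and CD200R1 restrain immune cells, and CD200R1 on microglia receives CD200 from neurons. Inflammatory stimuli such as lipopolysaccharide (LPS), a bacterial cell wall component sensed through TLR4, are known to induce CD40 and PD-L1 on macrophages.

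The cells were sorted from brains from which the choroid plexuses had been removed, and RNA was sequenced in bulk. Wild-type (WT) mice and Ccr2 knockout (KO) mice, which carry no functional copy of a chemokine receptor that monocytes need to leave the bone marrow, each contributed MG and sdCAMs under 3 conditions. Untreated mice received PBS. CTL mice received vehicle and, 8 weeks later, LPS. BLZ945 mice received the CSF-1R inhibitor BLZ945, which depletes these macrophages, and LPS 8 weeks later, when the niches had been repopulated. The third strain, Ccr2CreERT2/CreERT2:R26tdT/tdT, carries a tamoxifen-inducible Cre in both copies of the Ccr2 locus and a tdTomato (tdT) reporter, so tdT labels cells with Ccr2 activity at the time of tamoxifen, and their progeny. All reporter mice were treated with BLZ945 and tamoxifen and received LPS or PBS 8 weeks later, and MG, tdT+ sdCAMs and tdT- sdCAMs were sorted from each mouse, the sdCAMs as CD206+ cells (CD206 is the product of Mrc1). Cells were collected 12 h after the injection, and each of the 18 groups held 3 libraries from 3 mice. The reporter strain had no group without BLZ945, and the WT and KO strains had no group with BLZ945 and PBS.

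Levels are given below as TMM-scaled CPM, that is CPM after edgeR's trimmed mean scaling of the library totals over all 54 libraries. A gene was called changed at an edgeR adjusted p under 0.05 together with a log2 fold change over 1 in size, and "rose" and "fell" are used only for such calls. Log2 fold changes are given ± SE, and all adjusted p-values are from edgeR's quasi-likelihood test unless DESeq2 is named. The libraries held 1705930 to 11330781 counts, so 3 counts corresponded to 0.265 to 1.759 CPM. The 4 MG markers (P2ry12, Tmem119, Sall1, Siglech) summed to 14401 to 15484 CPM in WT MG and to 2936 to 5308 CPM in WT sdCAMs of untreated mice, against 21100 to 21450 and 1648 to 2465 CPM in KO mice. The 4 sdCAM markers (Mrc1, Pf4, Lyve1, Cd163) summed to 450.0 to 21393 CPM in sdCAM groups and to at most 19.5 CPM in MG groups. Over all 3 conditions together, Ccr2 lay at 1.73 to 5.48 CPM in KO sdCAMs, within the 0 to 50.99 CPM of WT sdCAMs. In KO MG it lay at 2.14 to 6.48 CPM, within the 0.685 to 8.54 CPM of WT MG. Pooled in this way, Ccr2 levels do not separate the genotypes in either cell type. In untreated mice the 4 monocyte markers (Ly6c2, Plac8, Chil3, Ccr2) summed to 28.8 to 52.2 CPM in WT sdCAMs, with Chil3 at 0. In untreated KO sdCAMs they summed to 2.33 to 5.2 CPM, and only Ccr2 had counts. In WT sdCAMs after CTL and LPS, the acute phase gene Saa3 took 22.98 to 35.76% of all counts, and values in this group depended on the scaling as given beside them. Among the LPS libraries of the reporter strain, the column of mouse 1 for tdT- sdCAMs and that of mouse 7 for tdT+ sdCAMs carried each other's index number. With the columns as named, sex-linked transcripts differed between libraries of the same animal in 2 of 24 mice, and in 0 of 24 after an exchange of the pair. Saa3 in mice 1, 5 and 7 took 14.5, 28.3 and 17.8% of counts in tdT- sdCAMs as named, and 2.14, 0.680 and 2.74% in tdT+ sdCAMs. Calls that changed with the exchange are given both ways, and levels and marker sums are given with the columns as named. In bulk RNA, fewer cells of a type and less RNA per cell cannot be told apart.

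Promoters of 3 members that differed after LPS in some of the groups are shown here for reference, as the 250 bases before the RefSeq transcription start (GRCm38.p6). The table used holds starts for 6 of the 9 genes, and Cd40, Cd86 and Cd200r1 had no entry. Each window was searched on both strands for an NF-kappaB consensus, for the interferon element ISRE (GAAANNGAAA) and for the motif GAS (TTCNNNGAA). The NF-kappaB consensus was found in Icosl, 111 bases before the start, and in Pdcd1lg2, 244 bases before it. ISRE and GAS were found in none of the 6 windows. Of all 32851 promoter windows of this length, 7.25% held the NF-kappaB consensus, 2.98% held ISRE and 7.02% held GAS. Shown are Cd274 (chr19:29367188-29367437, plus strand), which was higher after LPS, Vsir (chr10:60346601-60346850, plus strand), which was lower, and Icosl (chr10:78069118-78069367, plus strand), with the NF-kappaB match in capitals.
Cd274: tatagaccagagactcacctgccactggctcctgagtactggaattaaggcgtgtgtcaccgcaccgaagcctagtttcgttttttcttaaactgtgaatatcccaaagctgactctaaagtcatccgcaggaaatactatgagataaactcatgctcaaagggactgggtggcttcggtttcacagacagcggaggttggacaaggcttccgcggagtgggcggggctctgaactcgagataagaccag
Vsir: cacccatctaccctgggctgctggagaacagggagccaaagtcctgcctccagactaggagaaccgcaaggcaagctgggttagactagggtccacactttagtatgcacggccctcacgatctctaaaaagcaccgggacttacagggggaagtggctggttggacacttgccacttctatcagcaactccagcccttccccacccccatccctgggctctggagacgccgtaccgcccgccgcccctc
Icosl: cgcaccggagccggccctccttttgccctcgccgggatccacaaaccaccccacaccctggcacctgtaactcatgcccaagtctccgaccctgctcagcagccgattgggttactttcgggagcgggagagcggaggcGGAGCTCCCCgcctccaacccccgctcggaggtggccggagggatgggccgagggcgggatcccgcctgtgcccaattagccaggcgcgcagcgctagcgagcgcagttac

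In the GENCODE annotation of GRCm38, Cd274 spans chr19:29367455-29388095 and Pdcd1lg2 chr19:29410919-29471161, the neighbouring genes of the PD-1 ligands. Cd80 (chr16:38455561-38496335), Cd86 (chr16:36603869-36666081) and Cd200r1 (chr16:44765736-44794978) lie on chromosome 16, and Icosl (chr10:78069302-78083913) and Vsir (chr10:60346851-60372684) on chromosome 10. Cd40 lies at chr2:165055627-165072948 and Havcr2 at chr11:46454935-46481255. The counts cover whole genes, exons and untranslated parts alike, and the files themselves hold no coordinates. AC119228.1 is annotated antisense to Cd274 with shared exonic bases, and whether the counting used strand was not stated, so a part of the Cd274 counts may come from that transcript. Of the counts of the 4 Cd200r genes, whose sequences are related, 83.4% were assigned to Cd200r1 and 16.5% to Cd200r4.

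Per kilobase of exon, which allows genes to be compared, Vsir was the most abundant member in resting MG. In untreated WT MG, Vsir lay at 428 ± 20.4 CPM per kb (mean ± SD, n = 3), Havcr2 at 139.9 ± 10.02 and Cd86 at 103 ± 8.54. The ranges of these 3 genes did not overlap. Icosl followed at 30.1 ± 0.761 CPM per kb, then Cd80 at 9.06 ± 1.26, Cd200r1 at 7.40 ± 0.288, Cd274 at 3.31 ± 0.644 and Cd40 at 0.357 ± 0.475. Cd80 and Cd200r1 overlapped in range and could not be ordered, whereas Cd274 and Cd40 were each below every value of the gene before. Pdcd1lg2 was at 0 in every library of this group. In untreated KO MG the order was the same for the first 4 genes, with Vsir at 514 ± 10.98 CPM per kb, and Cd200r1 (12.4 ± 0.700) stood above Cd80 (9.64 ± 0.482) without overlap.

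The order in sdCAMs was different. In untreated KO sdCAMs, Cd86 (153 ± 9.96 CPM per kb) and Vsir (142 ± 10.04) overlapped at the top, and Cd200r1 came next at 54.1 ± 4.96. Icosl (21.1 ± 1.42) and Havcr2 (19.2 ± 3.30) overlapped, as did Cd80 (10.2 ± 1.05) and Cd40 (8.70 ± 1.76). Cd274 was the lowest detected member at 3.36 ± 1.71 CPM per kb. In untreated WT sdCAMs the libraries scattered more. Vsir, at 193 ± 28.5 CPM per kb, stood above Cd86 at 59.6 ± 6.78, which overlapped with Havcr2, and Icosl overlapped with Cd200r1, as did Cd40 with Cd80 and Cd80 with Cd274. After CTL and LPS, Cd40 followed in KO sdCAMs at 48.5 ± 3.44 CPM per kb, directly below Cd86 and Vsir and above Cd274 at 29.5 ± 9.44, with no overlap between these neighbours. In KO MG after CTL and LPS, Cd40 was near the bottom at 5.37 ± 2.80 CPM per kb and overlapped with Cd80 and Cd200r1.

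**Figure D1:**
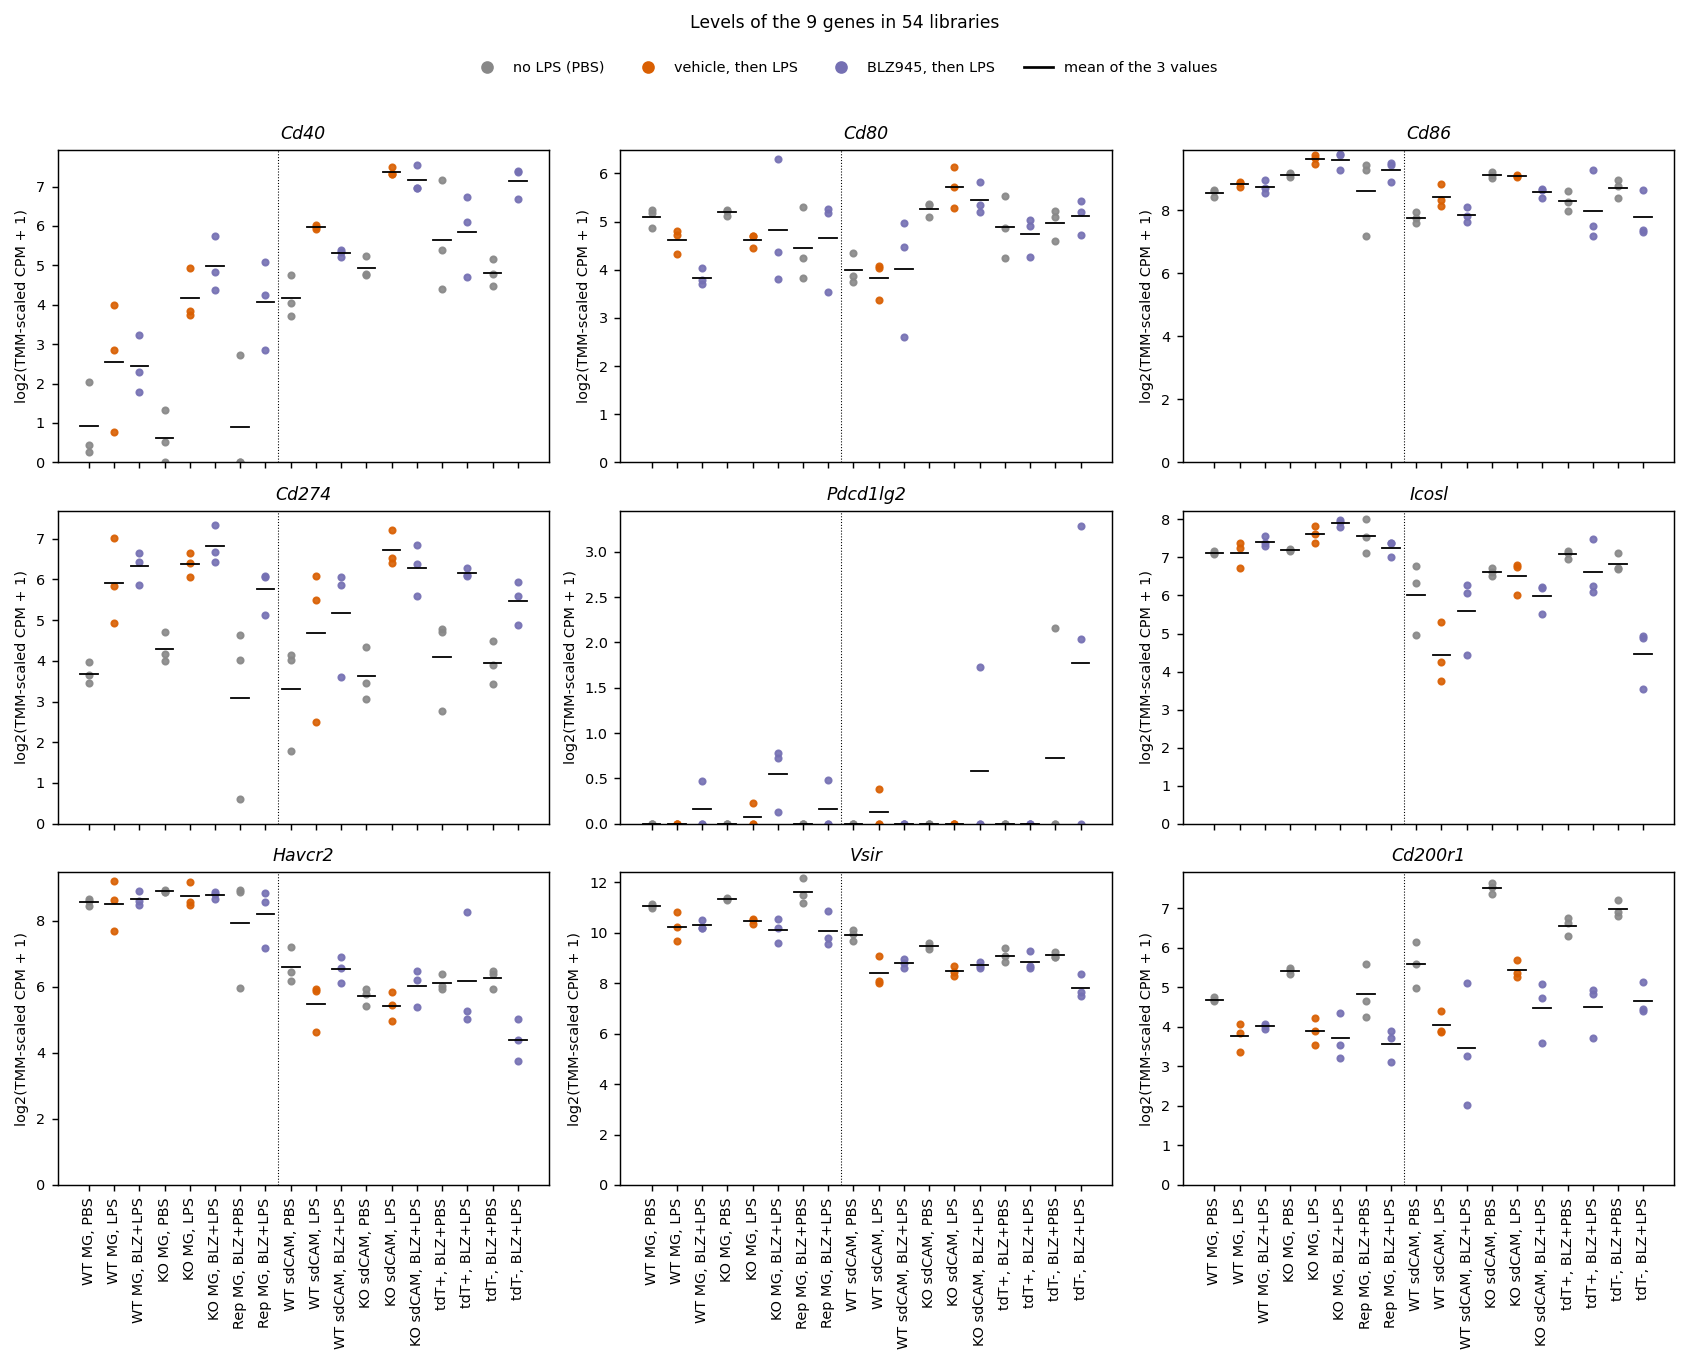
Level of each of the 9 genes in every library, on a log2(TMM-scaled CPM + 1) axis, with MG groups left and sdCAM groups right of the dotted line (BLZ, BLZ945; Rep, reporter). Grey points are libraries without LPS, orange points vehicle and LPS, purple points BLZ945 and LPS, and bars are means of 3 libraries. In KO mice Cd40 lies at 1.49 CPM or less in resting MG and between 25.8 and 36.5 CPM in resting sdCAMs, and Pdcd1lg2 stays at 0 in most libraries.

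The first comparison asked how the members differ between both cell types without LPS. In KO mice, 4 of the 8 members tested were called between sdCAMs and MG, against 15.0% of all genes. Cd40 and Cd200r1 were higher in sdCAMs, and Havcr2 and Vsir were higher in MG. In WT mice 3 of 8 were called (Cd40, Havcr2 and Vsir), against 17.1% of all genes. The median log2 difference of the members was -0.30 in KO and -0.85 in WT mice, against 0.0 and 0.03 over all genes tested.

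Cd40 was close to absent from resting MG. Its levels in untreated KO mice were 1.49, 0 and 0.439 CPM in MG, from 15, 0 and 4 counts, and 26.6, 36.5 and 25.8 CPM in sdCAMs (log2 fold change 5.54 ± 0.61, adjusted p = 1.14e-06). In untreated WT mice they were 3.08, 0.204 and 0.359 CPM in MG and 12.1, 15.4 and 26.2 CPM in sdCAMs (log2 fold change 3.88 ± 0.94, adjusted p = 0.00947). In both genotypes every sdCAM library exceeded every MG library. The WT call was lost without the MG library of mouse 14 (adjusted p = 0.0519) or of mouse 15 (adjusted p = 0.0571). In reporter mice after PBS, MG held 5.57, 0 and 0 CPM, tdT+ sdCAMs 143, 19.97 and 40.9 CPM and tdT- sdCAMs 34.6, 21.4 and 26.3 CPM. Cd40 was called in tdT+ sdCAMs over MG (log2 fold change 5.12 ± 1.23, adjusted p = 0.0118), where the library of mouse 174 lay far above the others and the call was lost without it (log2 fold change 4.00, adjusted p = 0.0545), as it was with only the groups compared (adjusted p = 0.237). The T cell markers summed to 117 CPM in that library, to 6.54 and 70.8 CPM in the other 2 and to 0 in MG. The monocyte markers (Ly6c2, Plac8, Chil3, Ccr2) summed to 142 to 287 CPM in resting reporter sdCAMs against 2.58 to 6.07 CPM in MG. Ccr2 alone reached 281 CPM in reporter sdCAMs, with Chil3 at 0 in both resting sdCAM groups and Ly6c2 at 0 in tdT+. The part of T cells and monocytes was not tested. Cd40 missed the threshold in tdT- sdCAMs (log2 fold change 3.83 ± 1.16, adjusted p = 0.0549) but passed it with the mouse as a replicate block (log2 fold change 5.51, adjusted p = 0.00762).

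Cd200r1, the receptor of the neuronal CD200 signal, was also higher in sdCAMs, with calls in KO and reporter mice. Untreated KO mice had 42.05, 43.7 and 39.1 CPM in MG and 183, 197 and 164 CPM in sdCAMs (log2 fold change 2.12 ± 0.33, adjusted p = 7.93e-05), a 4.34-fold difference with no overlap. In WT mice MG had 24.01, 25.9 and 24.4 CPM and sdCAMs 30.8, 47.4 and 69.95 CPM. These groups did not overlap either, but the difference was not called (log2 fold change 1.00 ± 0.56, adjusted p = 0.229). In reporter mice after PBS, Cd200r1 was called higher than in MG both in tdT+ sdCAMs (log2 fold change 1.63 ± 0.47, adjusted p = 0.0348, with 3 of 9 members tested called against 8.53% of all genes) and in tdT- sdCAMs (log2 fold change 2.05 ± 0.48, adjusted p = 0.011, 2 of 9 against 6.38%). Leaving out single libraries ended the tdT+ call in 5 of 6 cases and the tdT- call in 2 of 6, with adjusted p-values of 0.0541 to 0.127, and the tdT+ call was also lost with the 2 columns exchanged (adjusted p = 0.0521).

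Havcr2 and Vsir, both coding for inhibitory receptors, had the opposite pattern. Havcr2 lay at 494, 474 and 467 CPM in KO MG and at 54.6, 42.3 and 59.9 CPM in KO sdCAMs (log2 fold change -3.20 ± 0.27, adjusted p = 3.66e-08). WT mice had 389, 350.0 and 402 CPM in MG and 70.8, 86.8 and 147 CPM in sdCAMs (log2 fold change -1.91 ± 0.42, adjusted p = 0.00517). Every sdCAM value was below every MG value in both genotypes. Vsir lay at 2538, 2639.8 and 2553 CPM in KO MG and at 716, 660.3 and 761 CPM in KO sdCAMs (log2 fold change -1.86 ± 0.18, adjusted p = 2.66e-07). In WT mice the Vsir levels were 2038, 2151 and 2242 CPM and 820.2, 979 and 1106 CPM (log2 fold change -1.13 ± 0.37, adjusted p = 0.0407), again without overlap, but this call was lost with the mouse as a replicate block (adjusted p = 0.0762) and in 5 of 6 fits without a library. Vsir was lower in reporter sdCAMs than in MG as well, with log2 fold changes of -2.58 in tdT+ (adjusted p = 0.000387) and -2.56 in tdT- sdCAMs (adjusted p = 0.000456). Havcr2 was not called there (log2 fold changes -2.30 and -2.15, adjusted p = 0.0711 and 0.106), and the groups overlapped through the MG library of mouse 175, without which both were called (adjusted p = 0.0139 and 0.0244). DESeq2 called both with all libraries (adjusted p = 0.017 and 0.0305). The sdCAM libraries also held the MG markers at the sums given above, which were higher in WT than in KO sdCAMs, and the part of MG transcripts in the sdCAM levels of Havcr2 and Vsir was not tested.

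Cd86, Cd80, Cd274 and Icosl were not called between resting sdCAMs and MG in any strain. For Cd86 in KO mice the interval of the log2 difference was narrow, -0.27 to 0.27 (approximate 95% interval), at 566, 586 and 527 CPM in MG and 561, 526 and 599 CPM in sdCAMs. In WT mice every sdCAM value of Cd86, Cd80 and Icosl lay below every MG value, with log2 differences of -0.76, -1.12 and -0.94 and edgeR adjusted p-values of 0.0803, 0.127 and 0.165. Icosl in KO mice passed the adjusted p but not the fold limit (log2 difference -0.59, adjusted p = 0.0464). For Cd274 the intervals were -1.38 to 0.08 in KO and -1.58 to 1.46 in WT mice.

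**Figure D2:**
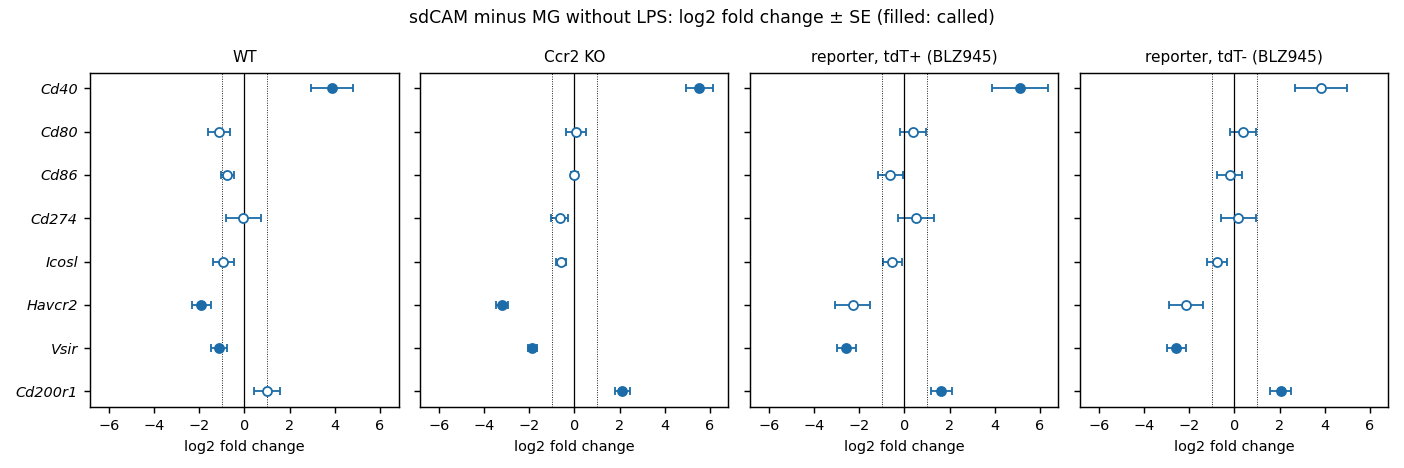
Log2 fold change of sdCAMs over MG without LPS for 8 members in WT, KO and reporter mice, with bars of 1 SE, filled points for calls and dotted lines at the fold limit of 1. Cd40 lies to the right in all 4 panels and Vsir and Havcr2 to the left, with Cd40 at 5.54 and Havcr2 at -3.20 in KO mice.

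The next comparison asked how the members respond to LPS in mice that had not been depleted. The LPS mice had also received vehicle 8 weeks earlier and the PBS mice had not, so effects of LPS and vehicle cannot be told apart. The same holds for the tests below of the LPS response by cell type and by genotype. In KO MG and in KO sdCAMs, Cd40 and Cd274 rose and Cd200r1 fell, 3 of 8 members in each cell type, against 19.4% and 21.5% of all genes. In WT MG Cd274 alone was called (1 of 8, against 16.7% of all genes), and in WT sdCAMs Cd40 alone (1 of 8, against 6.32%). Cd80, Cd86, Icosl, Havcr2 and Vsir were not called in these 4 comparisons. The median log2 fold change of the members lay between -0.48 and 0.17, against -0.08 to 0.02 over all genes.

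Cd274 (PD-L1) rose from 25.1, 14.996 and 17.01 CPM to 98.8, 65.9 and 84.1 CPM in KO MG (log2 fold change 2.14 ± 0.26, adjusted p = 2.87e-05). In KO sdCAMs it rose from 19.1, 10.004 and 7.36 to 146, 83.9 and 90.8 CPM (log2 fold change 3.13 ± 0.42, adjusted p = 0.000114), an 8.77-fold change. In both cell types all LPS libraries exceeded all PBS libraries, with the sdCAM library of mouse V1m the highest. WT MG went from 11.5, 9.97 and 14.6 to 128, 29.3 and 56.1 CPM (log2 fold change 2.56 ± 0.44, adjusted p = 0.00118), also without overlap, and this call held in 6 of 6 fits without a library. In WT sdCAMs the levels were 16.7, 2.43 and 15.3 CPM after PBS and 43.8, 4.66 and 66.6 CPM after LPS. The LPS library of mouse 4 lay within the PBS range there, and the change was not called (log2 fold change 1.93 ± 0.96, adjusted p = 0.241).

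Cd40 rose in KO MG from the near absence described above to 29.3, 13.2 and 12.3 CPM (log2 fold change 4.87 ± 0.70, adjusted p = 0.000108). KO sdCAMs reached 179, 157 and 159.7 CPM from 26.6, 36.5 and 25.8 CPM (log2 fold change 2.48 ± 0.22, adjusted p = 4.61e-06). Every resting sdCAM library lay above 2 of the 3 KO MG libraries after LPS, and the MG library of mouse V1m, at 29.3 CPM, lay within the resting sdCAM range. In WT sdCAMs Cd40 rose from 12.1, 15.4 and 26.2 to 62.3, 59.4 and 63.6 CPM (log2 fold change 1.94 ± 0.44, adjusted p = 0.0292). This WT call rested on the scaling, since with plain library totals the log2 fold change was 0.39 (adjusted p = 0.725) while the median of all genes moved by -1.48, and it was lost in 5 of 6 fits without a library, with adjusted p-values of 0.069 to 0.11. In WT MG, values of 14.9, 0.719 and 6.17 CPM overlapped with the PBS values, and Cd40 was not called (log2 fold change 2.60 ± 1.03, adjusted p = 0.0753). Without the LPS library of mouse 4 it was called in WT MG (log2 fold change 3.14, adjusted p = 0.00872), as it was without the PBS library of mouse 9 (4.63, adjusted p = 0.0226).

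Cd200r1 fell in KO MG from 42.05, 43.7 and 39.1 to 17.7, 13.9 and 10.6 CPM (log2 fold change -1.54 ± 0.30, adjusted p = 0.00105). It fell in KO sdCAMs from 183, 197 and 164 to 39.9, 37.6 and 50.2 CPM (log2 fold change -2.09 ± 0.32, adjusted p = 0.000336), so the sdCAM level after LPS was near that of resting MG. No LPS library reached a PBS library in either cell type. WT MG had 24.01, 25.9 and 24.4 CPM after PBS and 9.28, 15.9 and 13.4 CPM after LPS, a difference that passed the adjusted p but not the fold limit (log2 fold change -0.94, adjusted p = 0.00759). In WT sdCAMs, 13.6, 13.99 and 19.96 CPM after LPS lay below 30.8, 47.4 and 69.95 CPM after PBS without a call (log2 fold change -1.47 ± 0.77, adjusted p = 0.262). With plain library totals, Cd200r1, Icosl, Havcr2 and Vsir were called lower in WT sdCAMs, with log2 fold changes of -2.99, -3.11, -2.45 and -2.84.

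Vsir was lower after LPS in every library of these strains and cell types than in any PBS library of its group. KO MG had 1279, 1479 and 1435 CPM after LPS against 2538, 2639.8 and 2553 CPM after PBS, and KO sdCAMs 314, 408 and 351 against 716, 660.3 and 761 CPM. The log2 fold changes were -0.86 in KO MG (adjusted p = 0.00292), -0.996 in KO sdCAMs (adjusted p = 0.000247) and -0.75 in WT MG (adjusted p = 0.0256). All 3 passed the adjusted p and none passed the fold limit, KO sdCAMs by a narrow margin. In WT sdCAMs the value was -1.31 (adjusted p = 0.158).

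Neither the B7 ligands nor Icosl were called in MG. Cd86 was higher in KO MG after LPS, at 805, 862 and 706 against 566, 586 and 527 CPM (log2 fold change 0.52, adjusted p = 0.0142, under the fold limit), and Icosl likewise (log2 fold change 0.44, adjusted p = 0.0244). In KO sdCAMs the Cd86 interval was -0.30 to 0.23 and the Icosl interval -0.57 to 0.44 on the log2 scale. For Cd80 the log2 fold changes were -0.49 in WT MG and -0.57 in KO MG, where the LPS values lay below the PBS values, and 0.49 in KO sdCAMs, where they overlapped. None of these passed, with edgeR adjusted p-values of 0.082, 0.379 and 0.207. Havcr2 overlapped between LPS and PBS in WT MG, KO MG and KO sdCAMs, with log2 fold changes between -0.28 and 0.07. In WT sdCAMs Havcr2 lay at 23.8, 58.3 and 59.9 CPM after LPS, below 70.8, 86.8 and 147 CPM after PBS (log2 fold change -0.94, adjusted p = 0.249). Cd86 lay there at 283, 318 and 452 CPM after LPS, above 195, 244 and 216 CPM after PBS. Neither was called. With plain library totals these Cd86 values were 97.4, 114 and 223 CPM after LPS and 164, 241 and 256 CPM after PBS.

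After LPS, sums of the other cell types' markers differed too. Of the 4 neutrophil markers, S100a8 and S100a9 were detected and Ly6g and Retnlg were at 0 in WT sdCAMs, and their sum was 359 to 3259 CPM after LPS against 0 to 94.2 CPM after PBS. In KO sdCAMs the sum was 60.9 to 93.9 CPM after LPS against 0.905 to 2.41 CPM after PBS, with the same 2 markers at 0. The 5 dendritic cell markers (Flt3, Zbtb46, Xcr1, Ccr7, Cd209a), a cell type that also expresses Cd40, Cd80 and Cd86, summed to 76.4 to 162 CPM in KO sdCAMs after LPS, with Flt3 at 0, against 429 to 628 CPM after PBS, with Ccr7 at 0. The part of these cells in the member changes was not tested. The reporter sdCAMs were sorted as CD206+ cells, and the gate of the WT and KO sdCAMs was not given in the sources used here.

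The difference between the cell types' LPS responses was tested as an interaction, and no member was called in either genotype, against 1.32% of all genes in WT and 6.88% in KO mice. DESeq2 called no member in WT and Cd40 in KO mice. At an unadjusted p under 0.05, edgeR found 2344 genes in WT and 2684 in KO mice, Icosl among the former and Cd40 and Cd86 among the latter. In KO mice the response of Cd40 was smaller in sdCAMs by 2.36 on the log2 scale (standard error 0.76, adjusted p = 0.0638), and this passed with DESeq2 (adjusted p = 0.00781), with plain library totals (0.0299), with only the groups compared (0.0477) and without the PBS library of MG mouse 1m (0.0109). Cd274 in KO mice responded more in sdCAMs by 1.02 (standard error 0.51, adjusted p = 0.269), which passed with the mouse as a replicate block (1.07, adjusted p = 0.0422).

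**Figure D3:**
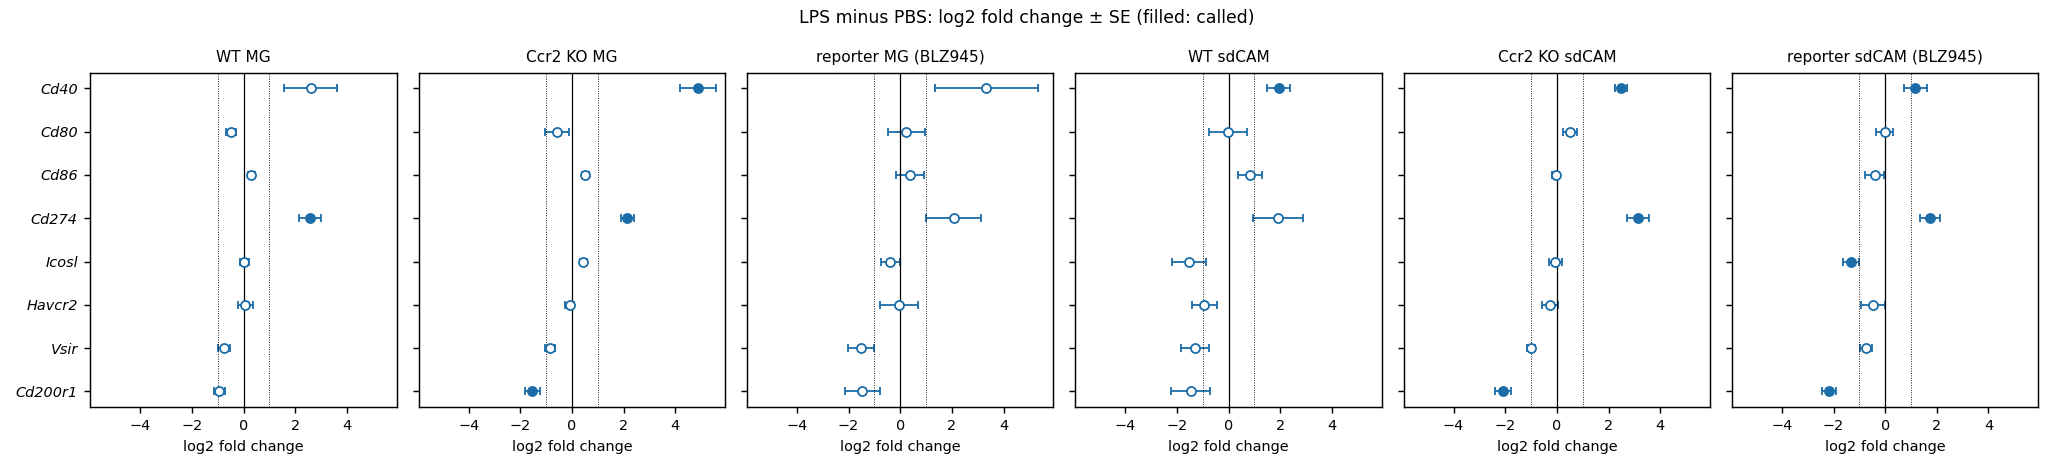
Log2 fold change of LPS over PBS for 8 members in the 6 strain and cell type combinations, with bars of 1 SE, filled points for calls and dotted lines at the fold limit of 1. The LPS groups of WT and KO mice had also received vehicle, and their PBS groups had not. Cd40 and Cd274 lie to the right in all 6 panels and Cd200r1 to the left.

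In the reporter mice, all repopulated after BLZ945, the LPS response was compared with PBS in each sorted population. In MG no member was called, against 1.08% of all genes (edgeR, 1510 genes at an unadjusted p under 0.05, of the members only Vsir), and DESeq2 called none either. The PBS library of mouse 175 stood apart there, with Cd86 at 144 CPM, Havcr2 at 61.7 CPM and Cd274 at 0.516 CPM, against 615 and 692, 467 and 487, and 23.8 and 15.2 CPM in the other 2 PBS libraries. It had a count for 10815 genes, the lowest number among all libraries. Cd274 in reporter MG was at 33.97, 65.7 and 66.7 CPM after LPS, above all 3 PBS values, with a log2 fold change of 2.07 (standard error 1.08, adjusted p = 0.475). Vsir lay at 1858, 755 and 874 CPM after LPS and at 2282, 4569 and 2838 CPM after PBS (log2 fold change -1.52 ± 0.50, adjusted p = 0.206), with no overlap.

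In reporter sdCAMs, the mean of the tdT+ and tdT- responses called 4 of 9 members against 28.8% of all genes. Cd40 and Cd274 rose (log2 fold changes 1.17 and 1.74, adjusted p = 0.047 and 0.00281), and Icosl and Cd200r1 fell (log2 fold changes -1.33 and -2.18, adjusted p = 0.00347 and 3.14e-05). With the 2 columns exchanged, Cd274 and Cd200r1 were called, whereas Cd40 (1.28, adjusted p = 0.0706) and Icosl (-1.01, adjusted p = 0.132) were not. Cd40 was also lost in 9 of 12 fits without a library. The same 2 genes were lost when tdT+ and tdT- counts were summed per mouse, with adjusted p-values of 0.18 for Cd40 and 0.151 for Icosl.

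Cd200r1 was called in both populations under either assignment of the columns. tdT+ sdCAMs had 97.3, 106 and 77.1 CPM after PBS and 29.3, 12.3 and 27.4 CPM after LPS (log2 fold change -2.03 ± 0.39, adjusted p = 0.0033). The value of 12.3 CPM was that of mouse 5, whose tdT+ library held the MG markers at 2148 CPM. Its sdCAM markers summed to 450 CPM, against 2666 and 3386 CPM in the tdT+ libraries of mice 1 and 7. tdT- sdCAMs had 109.8, 148 and 118 and 34.1, 20.2 and 20.9 CPM (log2 fold change -2.32 ± 0.40, adjusted p = 0.000483). Monocyte markers (Ly6c2, Plac8, Chil3, Ccr2) summed to 230 to 286 CPM after PBS and 9.86 to 27.3 CPM after LPS in tdT+, and to 142 to 287 and 9.33 to 79.1 CPM in tdT- sdCAMs, with Chil3 at 0 in all 4 groups and Ly6c2 at 0 in tdT+ after PBS. Ccr2 alone reached up to 281 CPM in reporter sdCAMs, near the highest of these sums. Dendritic cell markers summed to 383 to 556 CPM after PBS and 163 to 197 CPM after LPS in tdT- sdCAMs, and the part of these cells was not tested. All 6 Cd200r1 values after LPS were below all 6 after PBS, which an exchange of the LPS columns leaves as it is. Cd274 lay at 25.2, 26.5 and 5.82 CPM after PBS and 68.4, 77.2 and 66.9 CPM after LPS in tdT+ sdCAMs, and at 9.71, 13.9 and 21.4 and 28.3, 47.4 and 60.5 CPM in tdT- sdCAMs. Here, too, all 6 LPS values were above all 6 PBS values. The single-population calls of Cd274 (log2 fold change 1.89 in tdT+ and 1.59 in tdT- sdCAMs, adjusted p = 0.0328 and 0.0419) were each lost in 5 of 6 fits that left a library out, and the tdT+ call also with the columns exchanged (adjusted p = 0.107).

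In tdT+ sdCAMs, Cd274 and Cd200r1 were the 2 of 9 members called after LPS, against 13.4% of all genes. In tdT- sdCAMs 5 of 9 were called, against 26.5%. Besides these 2, Cd40 rose in tdT- sdCAMs from 34.6, 21.4 and 26.3 to 167, 102 and 165 CPM (log2 fold change 2.39 ± 0.63, adjusted p = 0.0107). Icosl fell from 102, 104 and 137 to 10.6, 29.6 and 28.4 CPM (log2 fold change -2.33 ± 0.45, adjusted p = 0.0012), and Vsir fell from 608, 522 and 529.8 to 327, 177 and 197 CPM (log2 fold change -1.25 ± 0.32, adjusted p = 0.00958). None of these groups overlapped. Havcr2 lay at 88.2, 82.5 and 59.8 CPM after PBS and at 19.9, 31.6 and 12.4 CPM after LPS, also without overlap, and missed the threshold (log2 fold change -1.84 ± 0.68, adjusted p = 0.0561), which it passed with only the groups compared (0.0163), with the study's low-count rule (0.0331), with plain library totals (0.00597) and without the LPS library of mouse 5 (0.0484), but not with the columns exchanged (0.222). The 3 calls of Cd40, Icosl and Vsir were lost with the columns exchanged, at log2 fold changes of 2.02, -1.37 and -1.10 and adjusted p-values of 0.0813, 0.202 and 0.111. In tdT- sdCAMs the neutrophil markers summed to 571 to 2233 CPM after LPS and were at 0 after PBS, with Ly6g and Retnlg at 0 throughout, and the median of all genes moved by -0.80 with plain library totals, which ended the calls of Cd40 and Cd274 (adjusted p = 0.0528 and 0.274).

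The tdT+ and tdT- populations of the same mice were also compared directly. After PBS no member was called, against 0.0236% of all genes (edgeR, 566 genes at an unadjusted p under 0.05, of the members only Cd40), and DESeq2 called none either. Dendritic cell markers summed to 383 to 556 CPM in tdT- and to 71.5 to 133 CPM in tdT+ sdCAMs after PBS, with Xcr1 and Ccr7 at 0 in the latter. After LPS, Icosl and Havcr2 were higher in tdT+ sdCAMs, 2 of 9 members against 10.6% of all genes. Icosl lay at 67.2, 178 and 74.6 CPM in tdT+ sdCAMs and at 10.6, 29.6 and 28.4 CPM in those without tdT (log2 fold change 2.23 ± 0.45, adjusted p = 0.0042). The groups did not overlap, and the call held in 6 of 6 fits without a library, but with the columns exchanged the Icosl difference was 0.95 (adjusted p = 0.89). Havcr2 lay at 31.8, 308 and 37.9 CPM in tdT+ sdCAMs and at 19.9, 31.6 and 12.4 CPM in those without tdT (log2 fold change 2.56 ± 0.70, adjusted p = 0.0276). Neutrophil markers summed to 8.31 to 47.2 CPM in these tdT+ and to 571 to 2233 CPM in these tdT- libraries, and dendritic cell markers to 28.6 to 111 and 163 to 197 CPM. An exchange of the columns would place the neutrophil sum of 2233 CPM in tdT+ and one of 29.0 CPM in tdT- sdCAMs. Ly6g, Retnlg and Xcr1 were at 0 in both groups and S100a9 in tdT+, and the part of these cells was not tested. With plain library totals the median of all genes moved by 1.03. The highest Havcr2 and Icosl values were both those of mouse 5, whose tdT+ library held the MG markers at 2148 CPM against 233 and 270 CPM in the other 2. This was near the 2555 CPM of MG from the same mouse. Without that library the Havcr2 difference was 0.75 (adjusted p = 0.341), and with the columns exchanged it was 2.13 (adjusted p = 0.762). The Havcr2 call was also lost without the tdT- library of mouse 1 (adjusted p = 0.068) or of mouse 7 (0.0761). With only the groups compared in the fit, neither Icosl (adjusted p = 0.0582) nor Havcr2 (0.128) was called.

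The interaction of tdT status and LPS in sdCAMs called no member, against 5.17% of all genes (edgeR, 2483 genes at an unadjusted p under 0.05), while DESeq2 called Cd40 and Icosl. Of the members, Cd40, Icosl, Havcr2 and Vsir had an unadjusted p under 0.05. For Icosl the difference of responses was 2.00 (standard error 0.61, adjusted p = 0.0701), which passed with the mouse as a replicate block (1.98, adjusted p = 0.0343), and for Cd40 it was -2.43 (standard error 0.86, adjusted p = 0.124). With the columns exchanged these differences were 0.72 and -1.47, both with an adjusted p of 1.00.

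**Figure D4:**
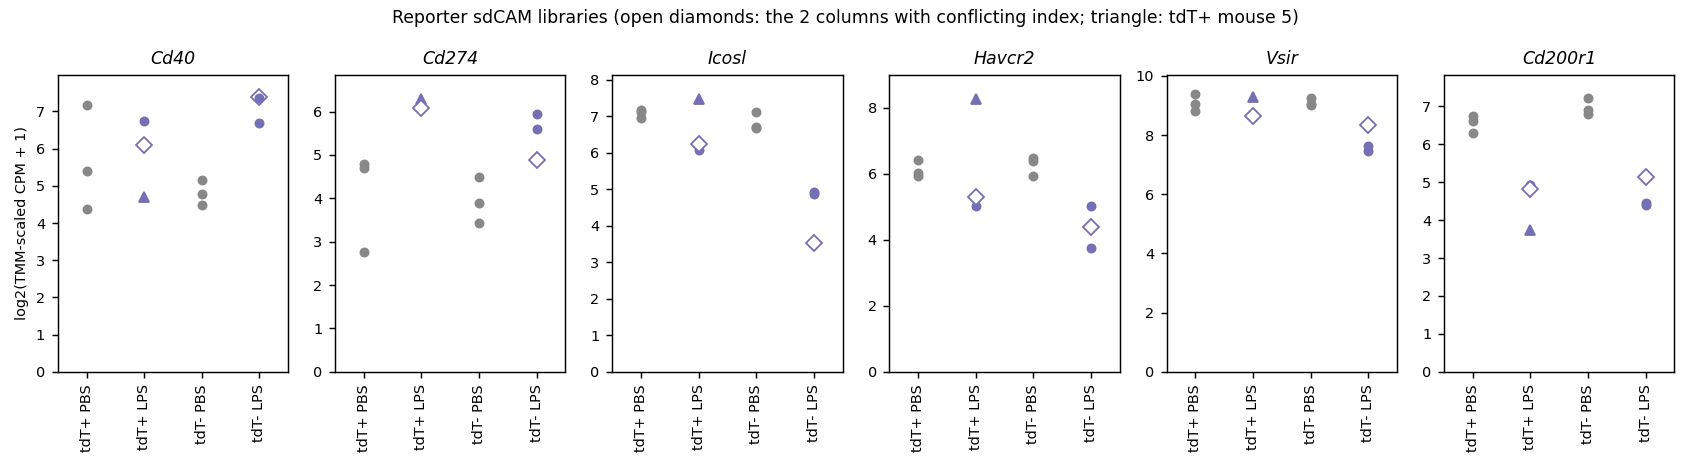
Level of 6 members in the 12 reporter sdCAM libraries on a log2(TMM-scaled CPM + 1) axis, after PBS (grey) and after LPS (purple). Open diamonds are the 2 columns that carry each other's index number and the triangle is the tdT+ library of mouse 5, which lies at 308 CPM for Havcr2 against 31.8 and 37.9 CPM in the other tdT+ libraries after LPS.

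The genotypes were compared in untreated mice. In MG no member was called, against 5.52% of all genes (edgeR, 3839 genes at an unadjusted p under 0.05). DESeq2 called no member there either. Cd86 passed the adjusted p in MG at a log2 difference of 0.56 (adjusted p = 0.0114), with every KO value above every WT value. In sdCAMs, Cd86 and Cd200r1 were higher in KO mice, 2 of 8 members against 9.5% of all genes. Cd86 lay at 561, 526 and 599 CPM in KO and at 195, 244 and 216 CPM in WT sdCAMs (log2 fold change 1.39 ± 0.30, adjusted p = 0.0101), and this call held in 6 of 6 fits without a library but not with plain library totals (1.44, adjusted p = 0.0944). Cd200r1 lay at 183, 197 and 164 CPM in KO and at 30.8, 47.4 and 69.95 CPM in WT sdCAMs (log2 fold change 1.92 ± 0.57, adjusted p = 0.0397). The groups did not overlap for either gene, but the Cd200r1 call was lost in 5 of 6 fits without a library, with adjusted p-values of 0.0885 to 0.121. Dendritic cell markers summed to 429 to 628 CPM in these KO sdCAMs and to 96.1 to 205 CPM in WT sdCAMs, with Ccr7 at 0 in the former and Xcr1 in the latter, and their part in the Cd86 difference was not tested. KO and WT libraries came as separate tables, so genotype and any difference between the sets of libraries cannot be told apart.

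Whether the LPS response differed by genotype was tested as well, and edgeR called none of the genes in MG (0.0%, 503 at an unadjusted p under 0.05) or in sdCAMs (0.0%, 1792). Of the members only Icosl in sdCAMs reached an unadjusted p under 0.05, with a difference of 1.68 (adjusted p = 0.307). For Cd274 the interval of the difference was -1.45 to 0.69 in MG and -0.67 to 3.43 in sdCAMs on the log2 scale. DESeq2 called no member in either cell type.

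Cells of depleted and of vehicle-treated mice were then compared after LPS, BLZ945 against CTL. These comparisons share the CTL and LPS libraries with the LPS comparisons above. No member was called in WT MG (0.0763% of all genes called), WT sdCAMs (0.0%), KO MG (0.0173%) or KO sdCAMs (0.0%). The WT sdCAM result depended on the scaling. With plain library totals the median of all genes moved by 1.345 there, and 176 genes were called higher and 3 lower. At an unadjusted p under 0.05, edgeR found 776, 758, 769 and 998 genes in these comparisons. DESeq2 called no member in any of the 4. An unadjusted p under 0.05 was found for Cd80 in WT MG and for Cd86, Icosl and Cd200r1 in KO sdCAMs.

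Cd274 after LPS was at 162, 101 and 85.3 CPM in BLZ945 and 98.8, 65.9 and 84.1 CPM in CTL KO MG (log2 fold change 0.47 ± 0.25, adjusted p = 0.79). In WT MG it was at 85.8, 99.3 and 57.7 and 128, 29.3 and 56.1 CPM (log2 fold change 0.20 ± 0.40, adjusted p = 0.976). The groups overlapped in both strains, and all BLZ945 MG libraries lay above every resting MG library of the same strain. Cd40 in KO sdCAMs was at 188, 124 and 124 CPM after BLZ945 and LPS, against 179, 157 and 159.7 CPM after CTL and LPS, with an interval of -0.62 to 0.20 for the log2 difference.

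The largest member differences by p were these. Cd86 in KO sdCAMs lay at 408, 401 and 334 CPM after BLZ945 against 535, 559 and 550.1 CPM after CTL (log2 fold change -0.55 ± 0.14, adjusted p = 0.314). Cd80 in WT MG lay at 12.8, 11.9 and 15.3 CPM after BLZ945 against 26.9, 25.5 and 19.2 CPM after CTL (log2 fold change -0.83 ± 0.20, adjusted p = 0.319). Neither pair of groups overlapped, and neither difference was called. Cd200r1 in KO sdCAMs, at 11.01, 32.7 and 25.5 CPM after BLZ945 against 39.9, 37.6 and 50.2 CPM, did not overlap either (log2 fold change -0.90 ± 0.32, adjusted p = 0.505). In WT sdCAMs the intervals were wide, for example -1.72 to 1.89 for Cd274 and -0.08 to 2.47 for Icosl, so the absence of calls there does not show equal levels. The test of whether the BLZ945 difference depended on genotype called no gene in MG (0.0%, edgeR, 494 genes at an unadjusted p under 0.05) or in sdCAMs (0.0%, 1332), and DESeq2 called no member. Without the BLZ945 library of WT mouse 12, Icosl was called in sdCAMs (log2 difference -2.35, adjusted p = 0.0224), against -1.77 (adjusted p = 0.458) with all libraries. In the sdCAM library of mouse 12 Saa3 took 21.0% of all counts, against 2.39% and 1.79% in those of BLZ945 mice 8 and 11.

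**Figure D5:**
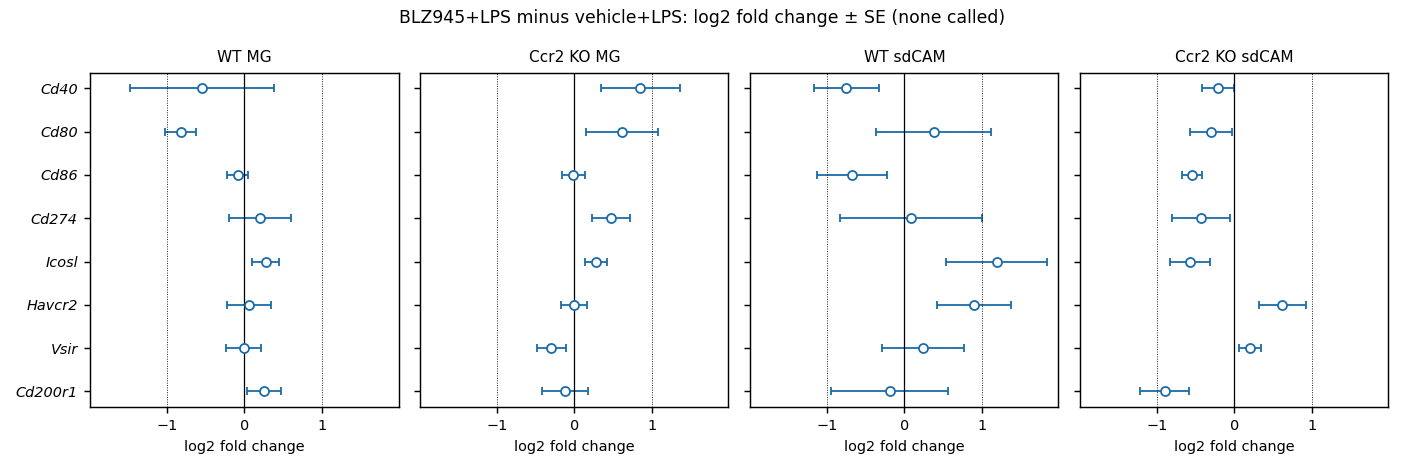
Log2 fold change of BLZ945 and LPS over CTL and LPS for 8 members in WT and KO MG and sdCAMs, with bars of 1 SE and dotted lines at the fold limit of 1. No point is filled, since no member was called, and the bars are shorter in KO sdCAMs (Cd86 at -0.55) than in WT sdCAMs.

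Pdcd1lg2, the gene of the other PD-1 ligand, was at or near the detection limit. It had 0 counts in 43 of 54 libraries, over 3 counts in 8 and over 10 in 3, with a highest count of 36. The highest level was 8.75 CPM in tdT- sdCAMs of mouse 5 after LPS. A count of 0 allows up to 3 counts, or 0.265 to 1.76 CPM depending on the library. Pdcd1lg2 passed the low-count filter only in the comparisons with reporter sdCAMs and was not called there, so 9 members were tested in those and 8 in the others.

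The members were set beside a list of 35 other genes of the same signalling systems, which were all in the tables. After LPS, 5 of the 24 tested were called higher and 7 lower in KO MG, where 19.4% of all genes were called in either direction, and 8 of 28 higher and 5 lower in KO sdCAMs (21.5%). In WT MG it was 4 higher and 7 lower of 22 (16.7% of all genes), and in WT sdCAMs 2 and 2 of 24 (6.32%). In reporter MG it was 1 and 2 of 21 (1.08%), and in reporter sdCAMs 8 and 9 of 28 (28.8%). The median log2 fold change of the list was -0.14 in KO MG and 0.54 in KO sdCAMs, against 0.00 and -0.05 over all genes. Sirpa, the receptor of the CD47 "do not eat me" signal, fell in all 6 comparisons, by 1.83 in KO MG and 1.45 in KO sdCAMs on the log2 scale. The inhibitory receptor genes Lair1 and Cd300a fell in 5 of 6 each, in KO MG by 1.33 and 2.20. Pirb, which codes for an inhibitory receptor of MHC class I, rose in 5 of 6, with log2 fold changes of 1.12 in KO MG and 3.90 in KO sdCAMs. Lilrb4a, an inhibitory receptor gene too, rose in 4 of 6, by 4.51 in KO MG and 1.36 in KO sdCAMs. Inhibitory receptor genes of the list were called in either direction after LPS. Traf1, an adaptor of CD40 signalling, rose in all 6 comparisons, by 3.42 in KO MG and 7.34 in KO sdCAMs. Tnfsf9, which codes for the ligand of the costimulatory receptor 4-1BB, rose in 4 of 6, by 2.61 in KO MG and 1.67 in KO sdCAMs.

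For each member, the genes most alike in level across the 18 group means were looked up by Pearson's r of log2 levels, among 8622 genes whose mean reached 10 CPM, leaving out Gm and Rik names. These means share libraries, strains and treatments, and the r values describe likeness only. Vsir was most like Bin2 (r = 0.984), Rtn4rl1 (0.982) and F11r (0.98), and over the 54 single libraries its nearest gene was the MG marker Tmem119 (r = 0.958). Cd274 was most like Ipo5 (0.968), Itga5 (0.962) and P2ry2 (0.959). Havcr2 was nearest to Extl3 (0.967), Parvg (0.955) and Gcnt1 (0.951). For Cd40 these were Marcksl1 (0.962), the interferon-induced Rsad2 (0.958) and Gpd2 (0.955), and Marcksl1 ranked first over single libraries as well (0.946). Cd200r1 was most like Fam234a (0.951), Aldh2 (0.948) and Vps26c (0.946), and Icosl like Kat7 (0.947), the interferon gamma receptor gene Ifngr1 (0.942) and Rassf5 (0.942). Cd86 came closest to Tmem33 (0.885), Med17 (0.885) and Fcgr3 (0.872), and Cd80 to Morf4l1 (0.868), Sqor (0.79) and Arl1 (0.778), while the counts of Pdcd1lg2 were too few for such a ranking. Over the single libraries, Med17 ranked 299 for Cd86 (r = 0.598), Kat7 269 for Icosl (0.718) and Morf4l1 13 for Cd80 (0.59). Ifngr1 ranked 1 for Icosl (0.901) and Aldh2 ranked 1 for Cd200r1 (0.867).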

How the data were processed

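RNA of sorted brain macrophages was sequenced in bulk in 54 libraries, 18 groups of 3, whose titles name separate mice. The deposited tables hold counts per gene symbol that the authors made with bcl2fastq 2.20, STAR 2.7.11a and featureCounts 2.0.8 (their own tests used DESeq2 1.46.0). The genome build is named in more than 1 way, the strand setting was not stated in the sources used here, and no molecular identifiers are named for these libraries, so the floor of 3 counts covers counting error only. Intervals of differences come from edgeR and include the spread between mice. The study used ComBat-seq on its WT and KO data, with batches that the labels do not name; whether the deposited counts precede that step was not given in the sources used here, and no batch term was fitted for it. Every column was matched to its sample by its name, and KO libraries after LPS were assigned by the cell type label where the title named the other cell type. Here, counts were tested with edgeR 4.0.16 (quasi-likelihood, filterByExpr, TMM) in R 4.3.3, with adjustment over all genes tested, and with DESeq2 1.42.0 as an alternative. The fits of WT MG, WT sdCAMs and KO sdCAMs were tested on simulated data for their LPS comparison, and the other fits were not. For WT MG and KO sdCAMs the direction and the size of the median recovered change were checked. For WT sdCAMs only its direction was checked. Levels are TMM-scaled CPM, which are relative to the rest of the library.

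The text names all 9 members, those of the 35 listed genes called in at least 4 of 6 LPS comparisons, Ccr2, and the 3 genes most like each member (Pdcd1lg2 left out for its few counts). The members and lists were chosen with earlier results of these data known. Alternatives were other scalings and filters, no fold limit, fits of only the groups compared, each library left out, the mouse as a block, the exchange or omission of the 2 columns, counts summed per mouse, and the mark "IEG correction" that 6 WT sdCAM libraries carry in their labels, which is not explained there. Plain library totals and the omission of Saa3 were chosen after seeing the data. MG and sdCAM libraries with 1 mouse number come from the same animal by their titles. Their deviations from the group means correlated at a median of 0.084 (36 pairs), against -0.038 (72 pairs) for different mice.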

Additional observations from a re-analysis of the deposited data

How the results depend on the processing

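Of 412 recomputed counts of called members, 358 stayed within 1.5 times the reported count, 33 were lower and 21 higher, and of 956 recomputed values of single members 819 kept direction and call. The cause of the changes was not tested. Without the fold limit, 3 members in place of 1 passed for LPS in WT MG, 6 in place of 3 for LPS in KO MG and 1 in place of 0 for KO against WT MG at rest. DESeq2 called 2 in place of 1 for LPS in WT sdCAMs, 4 in place of 2 for tdT- sdCAMs against MG at rest, 1 in place of 0 for cell type by LPS in KO mice and 2 in place of 0 for tdT by LPS. For tdT+ against tdT- sdCAMs after LPS it gave Havcr2 no adjusted p, so no count is given. Plain library totals called 4 in place of 1 for LPS in WT sdCAMs, 3 in place of 0 for cell type by LPS in WT and 1 in place of 0 in KO mice, 0 in place of 2 for KO against WT sdCAMs, 5 in place of 2 for tdT+ against tdT- after LPS and 3 in place of 0 for tdT by LPS. With the 2 columns exchanged, LPS called 2 in place of 4 in reporter sdCAMs, 1 in place of 2 in tdT+ and 2 in place of 5 in tdT- sdCAMs, and tdT+ against tdT- after LPS called 0 in place of 2, also with the block. With the columns left out, LPS in tdT+ sdCAMs called 1 in place of 2, and with counts summed per mouse reporter sdCAMs called 2 in place of 4. Fits of only the groups compared called 1 in place of 3 for tdT+ sdCAMs against MG at rest, 2 in place of 0 for cell type by LPS in KO mice and 0 in place of 2 for tdT+ against tdT- after LPS. KO against WT sdCAMs called 1 in place of 2 with DESeq2's size factors and with the IEG mark as a covariate.

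With the mouse as a replicate block, 1 member in place of 0 was called for cell type by LPS in KO mice (Cd274) and 1 in place of 0 for tdT by LPS (Icosl). Beside these, the block changed the calls of Vsir between WT sdCAMs and MG and of Cd40 between tdT- sdCAMs and MG, and with the columns as named it changed no other call of a member.

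Leaving out single libraries gave 1 to 4 members for LPS in WT MG, 0 to 1 in WT sdCAMs and 1 to 2 in tdT+ sdCAMs. It gave 1 to 3 for sdCAMs against MG at rest in WT mice, 1 to 4 for tdT+ and 1 to 3 for tdT- sdCAMs in reporter mice, and 1 to 3 for KO against WT sdCAMs. It gave 0 to 1 for cell type by LPS in KO mice, for genotype by BLZ945 in sdCAMs and for tdT by LPS, and 1 to 2 for tdT+ against tdT- after LPS. A direction turned in 4 cases, none of them called. Havcr2 after LPS in reporter sdCAMs was 0.16 with counts summed per mouse, Cd86 between tdT+ and tdT- after LPS ranged from -0.53 (without the tdT+ library of mouse 5) to 0.99 over the fits without a library, and Cd274 in that comparison was -0.0061 with the columns exchanged and -0.11 with the block as well. Depth limits Pdcd1lg2 and Cd40 in resting MG, whose counts are few.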
